A study of Mus musculus with 16 samples.

Results

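The 37 cell cycle and proliferation genes described here were chosen by symbol from the 51179 genes of the deposited table, and all 37 were found in it, each protein-coding and each above 0 in all 16 libraries. They fall into 3 roles: 14 mitotic cyclins, kinases and regulators, 13 genes of chromosomes, the spindle and cytokinesis, and 10 genes of DNA replication and nucleotide supply. RNA was sequenced from peripheral blood mononuclear cells (PBMCs) of C57BL/6N mice, isolated on Ficoll, treated with red cell lysis buffer, frozen and thawed. The chow group (5 libraries) ate regular chow, and the HFD+L-NAME group (5 libraries) received a high-fat diet with L-NAME, an inhibitor of nitric oxide synthases, over 15 weeks as a model of heart failure with preserved ejection fraction (HFpEF). The HFD+L-NAME+NO2-OA group (6 libraries) received the same regimen and, in its final 4 weeks, the nitro-fatty acid NO2-OA. The labels number the libraries but do not say that each came from a separate mouse, so p-values measure the spread between libraries, which may be technical, and the age of the mice is not given in the labels used here.

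Cells copy their DNA and divide in an ordered cycle, in which E2F factors switch on replication genes before DNA synthesis and a later wave of mitotic genes is switched on before division and their proteins are destroyed as it ends. Mature blood lymphocytes, monocytes and neutrophils rarely divide, while their precursors in bone marrow do. Red cell precursors divide in the marrow, leave the cycle and expel the nucleus, and the young red cells (reticulocytes) that enter blood still carry RNA, such as that of Alas2, the haem synthesis enzyme of red cells. Neutrophil precursors make granule genes such as Ngp around the stage at which they stop dividing. In bulk RNA, fewer cells of a type and less RNA per cell cannot be told apart.

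The promoters of 4 of these genes are shown because the first 2 followed Alas2 across libraries and the other 2 did not. They are the 250 bases before the gene start, 5′ to 3′ on the gene's strand, from RefSeq on build GRCm38.p6. Capitals mark CCAAT boxes (CCAAT or its reverse complement ATTGG) and the cell cycle homology region CHR (TTTGAA or TTCAAA), elements known from promoters of mitotic genes. Ube2c lies on the plus strand at chr2:164769679-164769928, Nusap1 on the plus strand at chr2:119618048-119618297, Pcna on the minus strand at chr2:132253181-132253430 and Cks2 on the plus strand at chr13:51644982-51645231.
Ube2c: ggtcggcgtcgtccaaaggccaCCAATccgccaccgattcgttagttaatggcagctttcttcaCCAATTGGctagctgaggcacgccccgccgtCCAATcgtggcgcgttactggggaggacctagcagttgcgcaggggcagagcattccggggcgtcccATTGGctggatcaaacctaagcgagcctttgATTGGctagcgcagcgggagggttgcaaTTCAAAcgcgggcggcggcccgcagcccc
Nusap1: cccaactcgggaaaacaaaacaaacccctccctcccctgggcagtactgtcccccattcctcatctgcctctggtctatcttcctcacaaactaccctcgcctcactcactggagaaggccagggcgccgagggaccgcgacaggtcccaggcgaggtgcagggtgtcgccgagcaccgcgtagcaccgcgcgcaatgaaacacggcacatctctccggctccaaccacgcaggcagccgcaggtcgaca
Pcna: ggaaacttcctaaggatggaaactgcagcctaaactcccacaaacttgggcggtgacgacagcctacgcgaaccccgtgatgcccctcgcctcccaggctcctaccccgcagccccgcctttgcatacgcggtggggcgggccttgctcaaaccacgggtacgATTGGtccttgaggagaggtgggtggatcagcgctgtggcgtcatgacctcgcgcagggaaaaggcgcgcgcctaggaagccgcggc
Cks2: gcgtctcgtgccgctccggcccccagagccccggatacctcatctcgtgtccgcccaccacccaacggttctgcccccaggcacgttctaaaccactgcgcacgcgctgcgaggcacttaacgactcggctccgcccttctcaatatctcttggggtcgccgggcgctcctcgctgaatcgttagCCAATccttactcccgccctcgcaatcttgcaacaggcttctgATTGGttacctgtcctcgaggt
The Ube2c promoter held 6 CCAAT boxes, 1 pair of which overlapped, and 1 CHR, whose first base lay at position -29 from the start. In the Cks2 promoter 2 CCAAT boxes were found, and in the Pcna promoter 1. The Nusap1 window held neither motif. A RefSeq promoter was found for 31 of the 37 genes. Over 300 bases, from 250 before to 50 after the start and on both strands, 27 of the 31 held a CCAAT box, against 37.4% of all 32851 promoters in the table, and 17 held a CHR, against 17.9%. An E2F site spelled TTCCCGC or GCGGGAA was in 2 of the 31, Mcm3 and Mcm7, against 4.6%. A GATA site spelled AGATAA or TTATCT was in 2, Cenpa and Top2a, against 11.2%. These are matches of letters and no measure of binding.

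Levels of the 37 genes were low. The values are in TPM, a transcript's share of all transcripts after correction for gene length. The 23 genes that reached 1 TPM in at least 5 libraries were tested; their means over the 16 libraries ran from 0.82 TPM for Aurkb, a kinase of chromosome segregation, to 53.6 TPM for Pcna, the sliding clamp of DNA polymerase. The other 14 did not reach this level, with means from 0.13 to 0.749 TPM and medians of 4 to 45.5 recovered reads per library. They were Ccnb1, Ccna2, Cdk1, Birc5, Cdca8, Bub1, Cenpe, Cenpf, Kif11, Kif20a, Tpx2, Prc1, Hmmr and Tyms, and 9 of them stayed under 1 TPM in every library. Among these are Cdk1, the kinase that drives mitosis, with 2 to 15 reads per library, and its partner cyclin Ccnb1, with 3 to 22 reads. With no filter on low values all 37 genes could be fitted, and 0 of 37 were called by limma in any of the 3 group comparisons, with 0, 1 and 1 genes at an unadjusted p under 0.05. Only 13 of the 37 reached 1 TPM in all 16 libraries.

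**Figure D1:**
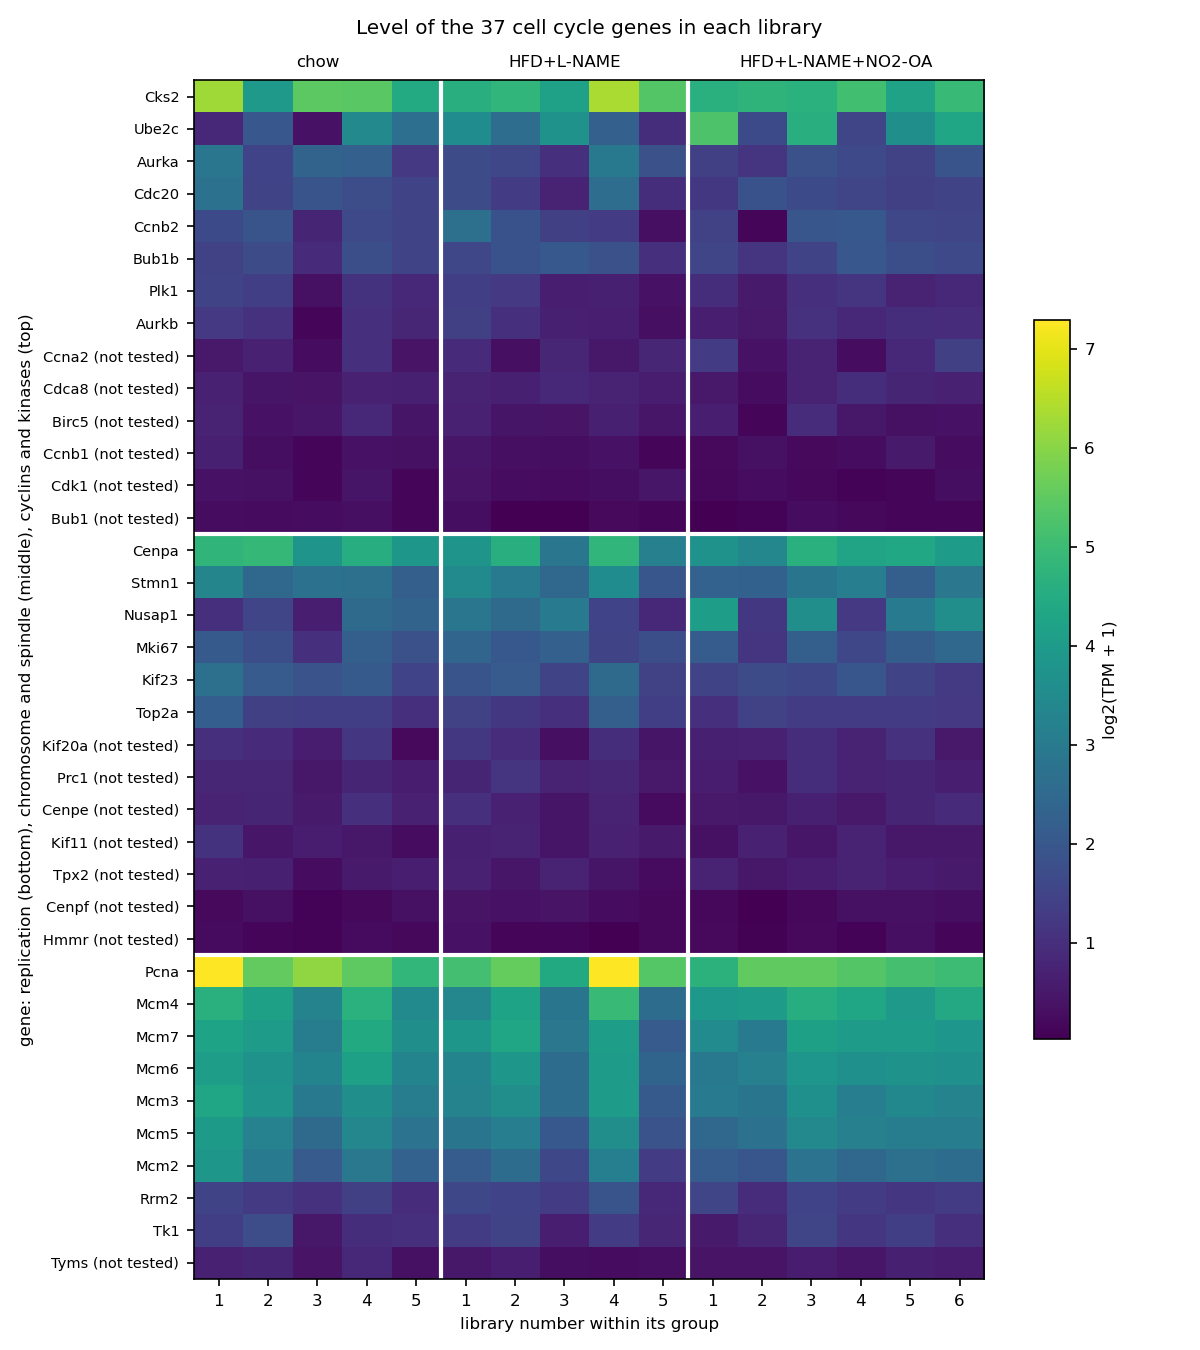
Level of each of the 37 genes (rows, log2(TPM + 1) as colour) in each of the 16 libraries (columns, by group), ordered by mean level within 3 roles. Pcna and Cks2 are the brightest rows, with their highest levels in chow library 1 and HFD+L-NAME library 4, while Ube2c and Nusap1 are brightest in HFD+L-NAME+NO2-OA library 1.

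Libraries held between 4940252 and 25477492 reads recovered from the TPM steps, a 5.16-fold range. Protein-coding genes took 15.1% to 22.1% of TPM in chow library 3, HFD+L-NAME library 5 and HFD+L-NAME+NO2-OA library 2, and 39.1% to 56.4% in the other 13. Haemoglobin genes took 0.141% to 30.7%, so red cell RNA remained after lysis in amounts that differed widely. B cell, T cell, NK cell and monocyte markers were present in every library. Platelet markers were too, summing to 303 to 30201 TPM, and mature neutrophil markers, summing to 33.1 to 2582 TPM. The summed peritoneal macrophage markers reached 260.5 TPM in chow and 552 TPM in HFD+L-NAME and 0.895 TPM in HFD+L-NAME+NO2-OA; the 4 libraries that carry them are chow 1 and 2 and HFD+L-NAME 1 and 5. Library numbers fall into a lower run of 11 and a higher run of 5 libraries, which holds those 4 and HFD+L-NAME+NO2-OA library 2.

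Among the mitotic regulators, Cks2, a small subunit that binds cyclin-dependent kinases, was the most abundant. It stood at 75.4, 14.1, 43.0, 42.2 and 20.95 TPM in chow libraries 1 to 5, at 23.3, 27.0, 17.3, 81.4 and 39.5 TPM in HFD+L-NAME libraries 1 to 5, and from 17.7 to 32.9 TPM (median 25.2) in the 6 HFD+L-NAME+NO2-OA libraries. Chow library 1 and HFD+L-NAME library 4 were the 2 highest, and the 3 groups overlapped. Ube2c, the ubiquitin-conjugating enzyme that works with the anaphase-promoting complex to destroy mitotic cyclins, varied most. It stood at 0.818, 2.98, 0.312, 9.85 and 5.38 TPM in chow libraries 1 to 5, at 10.8, 5.10, 12.6, 3.76 and 0.977 TPM in HFD+L-NAME libraries 1 to 5, and from 1.89 to 37.1 TPM (median 15.4) in the 6 HFD+L-NAME+NO2-OA libraries. Its highest level was 119 times its lowest, the highest being in HFD+L-NAME+NO2-OA library 1 with 2026 reads and the lowest in chow library 3 with 7 reads. The 2 libraries highest in Cks2 were also highest in Aurka and Cdc20. Aurka, the spindle pole kinase, reached 6.33 TPM in chow library 1 and 6.87 TPM in HFD+L-NAME library 4, against 1.06 to 4.08 TPM elsewhere. Cdc20, an activator of the anaphase-promoting complex, reached 5.77 and 5.17 TPM in the same libraries, against 0.665 to 2.73 TPM elsewhere. Ccnb2, a mitotic cyclin, ran from 0.0866 TPM, or 1 read, to 5.51 TPM in HFD+L-NAME library 1. Bub1b, a spindle checkpoint kinase, ran from 0.9 to 3.05 TPM, Plk1 from 0.266 to 1.85 TPM and Aurkb from 0.0781 to 1.65 TPM.

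Among the genes of chromosomes and the spindle, Cenpa, the histone H3 variant of centromeres, led. It stood at 26.6, 28.0, 12.8, 22.3 and 13.6 TPM in chow libraries 1 to 5, at 12.9, 23.3, 6.34, 26.8 and 8.10 TPM in HFD+L-NAME libraries 1 to 5, and from 9.497 to 23.8 TPM (median 16.9) in the 6 HFD+L-NAME+NO2-OA libraries. Stmn1, a protein that destabilises microtubules, came next. It stood at 8.99, 4.52, 5.66, 5.55 and 3.67 TPM in chow libraries 1 to 5, at 10.2, 7.29, 4.58, 10.9 and 2.91 TPM in HFD+L-NAME libraries 1 to 5, and from 3.67 to 7.69 TPM (median 5.10) in the 6 HFD+L-NAME+NO2-OA libraries. Both genes overlapped between the groups. Nusap1, a microtubule-binding protein of the mitotic spindle, stood at 1.05, 1.90, 0.558, 4.76 and 4.06 TPM in chow libraries 1 to 5, at 6.42, 4.83, 7.28, 1.78 and 0.766 TPM in HFD+L-NAME libraries 1 to 5, and from 1.29 to 16.3 TPM (median 9.17) in the 6 HFD+L-NAME+NO2-OA libraries. Its low and high libraries were nearly those of Ube2c, with up to 1419 reads in HFD+L-NAME+NO2-OA library 1. Mki67, which encodes the proliferation marker Ki-67, stood at 3.27, 2.39, 0.991, 3.68 and 2.58 TPM in chow libraries 1 to 5, at 4.25, 3.09, 3.75, 1.84 and 2.42 TPM in HFD+L-NAME libraries 1 to 5, and from 1.23 to 4.49 TPM (median 3.44) in the 6 HFD+L-NAME+NO2-OA libraries. Top2a, the topoisomerase that untangles sister DNA, stood at 3.55, 1.62, 1.59, 1.58 and 1.00 TPM in chow libraries 1 to 5, at 1.77, 1.29, 1.01, 3.67 and 1.58 TPM in HFD+L-NAME libraries 1 to 5, and from 1.02 to 1.73 TPM (median 1.43) in the 6 HFD+L-NAME+NO2-OA libraries. Kif23, a kinesin of the central spindle, reached 5.55 TPM in chow library 1 and 4.85 TPM in HFD+L-NAME library 4, against 1.38 to 3.33 TPM elsewhere. Mki67 was lowest in chow library 3, and Top2a was highest in chow library 1 and HFD+L-NAME library 4, again the libraries high in Cks2.

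Among the replication genes, Pcna stood at 154, 46.1, 67.2, 43.7 and 27.9 TPM in chow libraries 1 to 5, at 33.7, 46.4, 20.7, 156 and 40.8 TPM in HFD+L-NAME libraries 1 to 5, and from 24.8 to 45.3 TPM (median 37.3) in the 6 HFD+L-NAME+NO2-OA libraries. Chow library 1 and HFD+L-NAME library 4 stood apart, the next value being 67.2 TPM in chow library 3, and the groups overlapped. The processed copy Pcna-ps2 was listed at 3.48 to 28.4 TPM and ranked with Pcna across the 16 libraries at a Spearman's rho of 0.853, so the split of reads between them is uncertain. Mcm4 stood at 23.9, 16.9, 8.66, 24.6 and 10.1 TPM in chow libraries 1 to 5, at 9.54, 17.7, 6.24, 29.7 and 5.05 TPM in HFD+L-NAME libraries 1 to 5, and from 13.8 to 22.6 TPM (median 16.9) in the 6 HFD+L-NAME+NO2-OA libraries. Mcm2 stood at 13.6, 7.22, 3.29, 6.69 and 3.93 TPM in chow libraries 1 to 5, at 3.37, 5.06, 2.03, 7.90 and 1.48 TPM in HFD+L-NAME libraries 1 to 5, and from 2.90 to 5.96 TPM (median 4.80) in the 6 HFD+L-NAME+NO2-OA libraries. Both belong to the MCM helicase that opens DNA at origins, a ring built from the products of Mcm2 to Mcm7. The 15 pairs among these 6 genes ranked the libraries alike, with rho from 0.803 to 0.956. Chow library 1, chow library 4 and HFD+L-NAME library 4 were high in Mcm4, while HFD+L-NAME libraries 3 and 5 were low. Rrm2, a subunit of ribonucleotide reductase, ran from 0.777 to 2.79 TPM, and Tk1, thymidine kinase, from 0.411 to 2.36 TPM.

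The sum of the 37 genes asked how much of the RNA belongs to them as a whole. The sum stood at 415, 199, 189, 249.97 and 144 TPM in chow libraries 1 to 5, at 184, 217, 118, 415 and 129.8 TPM in HFD+L-NAME libraries 1 to 5, and from 149.9 to 244 TPM (median 191) in the 6 HFD+L-NAME+NO2-OA libraries. Group means were 239 ± 105 TPM (SD, n = 5), 213 ± 120 TPM (SD, n = 5) and 194 ± 30.7 TPM (SD, n = 6) in the same order, so the groups differed by less than the spread within chow and HFD+L-NAME. Pcna, Cks2 and Cenpa together made up 32.6% to 68.1% of the sum, and Ube2c and Nusap1 together 0.45% to 28.5%. The sum therefore follows a few abundant genes, and in HFD+L-NAME+NO2-OA library 1 it is set in good part by Ube2c and Nusap1.

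Across the 16 libraries, which share depth and composition effects, the sum ranked with Alas2 at a Spearman's rho of -0.097 (Pearson's r of the log2 values -0.239) and with Ngp at -0.321 (r -0.305). In the 11 libraries of the lower number run alone, rho was -0.118 with Alas2 and 0.182 with Ngp. Without the 2 libraries farthest from the median of the marker, rho was 0.125 with Alas2 (n = 14) and -0.182 with Ngp (n = 14). The sum thus tracked neither marker closely, and the sign of each relation changed with the libraries used. With each library's total set to its protein-coding genes, rho with Alas2 was -0.691. The sum of Ube2c and Nusap1 alone ranked with Alas2 at rho 0.974 over all 16 libraries, 0.973 in the 11 of the lower run and 0.974 without the 2 farthest libraries. The other 35 genes summed ranked with Alas2 at -0.268.

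Testing gene by gene, 2 of the 23 genes rose with Alas2 and none fell. For each gene, log2(TPM + 1) was regressed on that of Alas2 beside the 3 groups in limma, with p-values adjusted over all 16364 genes. Among all these genes 1.23% were called in either direction, 0.66% upward and 0.574% downward. Ube2c had a slope of 0.62 ± 0.07 (SE, adjusted p = 1.09e-06) and Nusap1 of 0.48 ± 0.07 (SE, adjusted p = 5.44e-05), ranking 18 and 35 among all genes by p. A slope of 0.62 means that the level rose by 0.62 on the log2 scale with each doubling of Alas2 + 1. Both genes stayed called in each of the 27 alternative settings, with slopes from 0.57 to 0.79 for Ube2c and 0.43 to 0.63 for Nusap1. Per 1000 TPM of Alas2 there were 16.2 to 38.7 TPM of Ube2c in 15 libraries and 94.4 TPM in chow library 1, where Alas2 was lowest at 8.66 TPM.

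The next largest slopes on Alas2 were 0.16 ± 0.08 (SE) for Ccnb2, 0.14 ± 0.06 for Mki67 and 0.10 ± 0.09 for Mcm7, with adjusted p = 0.37, 0.32 and 0.67. The lowest were -0.24 ± 0.09 for Pcna, -0.19 ± 0.09 for Cks2 and -0.11 ± 0.07 for Cdc20, with adjusted p = 0.22, 0.32 and 0.51. None of these 6 passed the test. The copy Pcna-ps2, whose reads cannot be split from those of Pcna with certainty, did, with a slope of -0.33 ± 0.07 (SE, adjusted p = 0.0127). The median slope of the 23 genes was 0.01, beside 0.04 for all tested genes. In the fit on Alas2, 6 of the 23 had an unadjusted p under 0.05 in limma, in either direction, as did 2170 of all 16364 genes. On the scale of protein-coding genes alone, Ube2c and Nusap1 rose as before and 10 of 32 genes fell, among them Pcna at -0.49, Cks2 at -0.42, Kif23 at -0.29 and, of the 14 genes not tested on the main scale, Kif11 at -0.25. On that scale the median of all genes moved from 0.04 to -0.13 and 1744 of 12085 genes fell. The 10 falls thus stand beside a general shift, and their share of the members was larger than the share of all genes. What this larger share comes from was not tested. Ccna2, which was not tested on the main scale, ranked with Alas2 at a rho of 0.709, with 6 to 131 reads per library. Mki67, whose slope did not pass the test, ranked with Alas2 at 0.771, with 90 to 757 reads. Other genes ranked against Alas2, among them Kif11 at -0.653 and Top2a at -0.574.

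**Figure D2:**
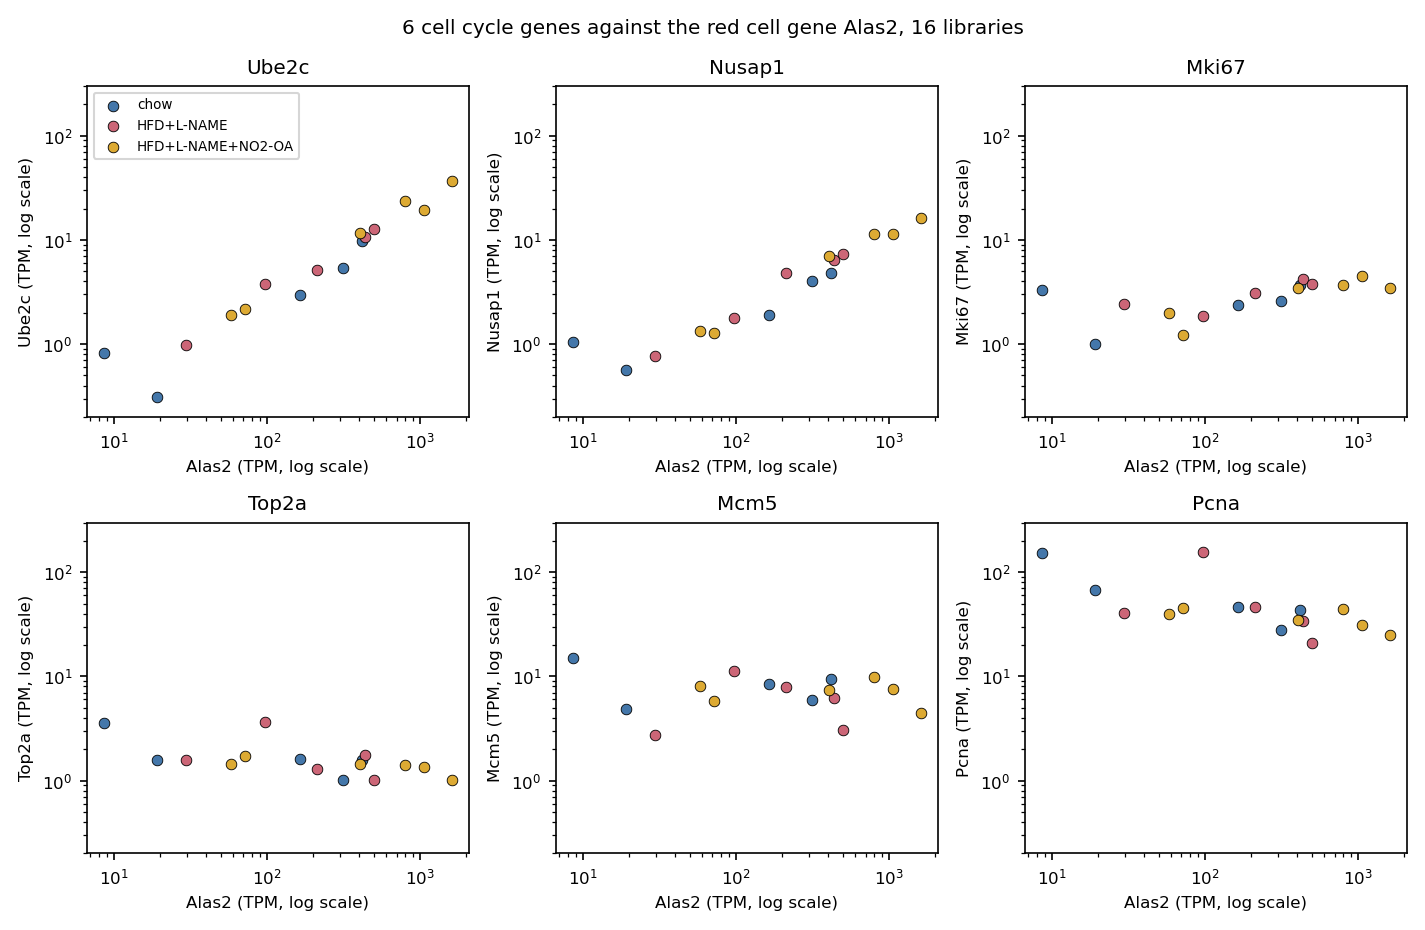
Level of 6 genes (vertical axes, TPM, log scale) against Alas2 (horizontal axes, TPM, log scale) in the 16 libraries, coloured by group. Ube2c and Nusap1 rise with Alas2, with slopes of 0.62 and 0.48, while Pcna in chow library 1 and HFD+L-NAME library 4 stands near 154 and 156 TPM at low Alas2.

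Other red cell genes moved with the same 2 genes. Of the 13 other erythroid markers tested, 10 rose with Alas2, with a median slope of 0.88 over the 13. By the rank of their sum over 16 libraries, those most like Ube2c and Nusap1 among protein-coding genes included Prdx2, a peroxiredoxin abundant in red cells, Tspan33, Prxl2a, Slc25a39, Hagh, Ube2l6, Tent5c, Bpgm, the red cell enzyme that makes 2,3-bisphosphoglycerate, and Slc48a1, a haem transporter. Their rho ran from 0.976 to 0.988 among 9385 genes ranked, and Alas2 came at place 11. Klf1, a transcription factor that defines nucleated red cell precursors, stayed under 1 TPM in every library, and so did the progenitor genes Kit, Cd34 and Meis1. Other genes of the same 2 lists were present. Gata1 had 14 to 520 reads per library and Tfrc 469 to 2732, and of the progenitor list Flt3 had 61 to 386 and Gata2 9 to 888. From its lowest to its highest library, Mki67 ranged 4.53-fold and Top2a 3.66-fold, against 119-fold for Ube2c and 29.2-fold for Nusap1. The 4 platelet markers had slopes on Alas2 from 0.41 to 0.51 and none passed the test; their part in the slopes of Ube2c and Nusap1 was not tested. Ube2c ranked with the erythroid marker list at rho 0.953 and with the platelet list at 0.391. The erythroid list includes Alas2 and the 10 markers that rose with it, so its rho is not independent of the slope on Alas2.

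No gene of the 23 passed the test for a slope on Ngp. The same fit on Ngp called 0 of 23 genes by limma at an adjusted p under 0.05, and 0 at an unadjusted p under 0.05. Of all 16364 genes, 0.0122% were called, namely the granule genes Ltf and Camp. The largest slopes were 0.05 ± 0.13 (SE) for Cks2, 0.03 ± 0.11 for Stmn1, 0.02 ± 0.10 for Cdc20, -0.0072 ± 0.08 for Aurkb and -0.01 ± 0.11 for Mcm6. The lowest were -0.14 ± 0.20 for Ube2c, -0.12 ± 0.11 for Mcm2 and -0.11 ± 0.12 for Cenpa. None passed the test. The median of the 23 slopes was -0.05, beside -0.07 for all tested genes. With Alas2 and Ngp in 1 fit, Ube2c (0.62) and Nusap1 (0.48) were called on Alas2, where 1.22% of all genes were called, and no gene of the 23 on Ngp, where 0.0122% were. Ngp itself stood at 0.11 to 142 TPM. The early granule genes Elane and Mpo peaked in HFD+L-NAME library 1 at 3.08 and 4.09 TPM and stayed under 1 TPM in the other 15. Prtn3, of the same marker list, was not confined to that library. It had 49 reads there, 30 in HFD+L-NAME+NO2-OA library 1 and 17 each in HFD+L-NAME library 5 and HFD+L-NAME+NO2-OA library 2.

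**Figure D3:**
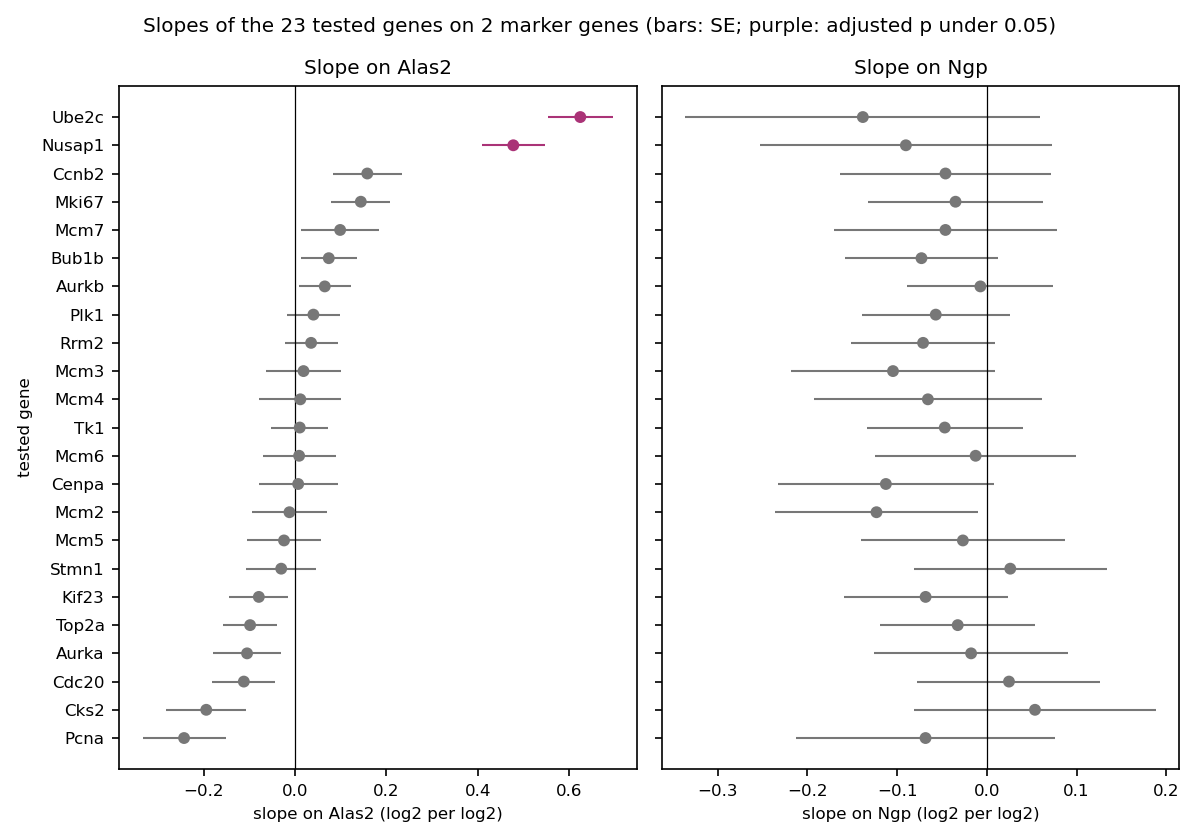
Slope of each of the 23 tested genes on Alas2 (left) and on Ngp (right), as log2 per log2 on the horizontal axis, with bars for the standard error and purple for an adjusted p under 0.05. Ube2c at 0.62 and Nusap1 at 0.48 stand apart on Alas2, and on Ngp every bar reaches or nearly reaches 0.

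The 6 Mcm genes ranked with lymphocyte and monocyte markers and not with red cell markers, and most tested genes also ranked with the former. With the erythroid marker list, Mcm2 to Mcm7 had rho from -0.124 to 0.038. With the T cell list they had 0.762 to 0.871, with the B cell list 0.594 to 0.876 with the plasma cell list 0.885 to 0.918 and with the monocyte list 0.518 to 0.829. The median rho over all 16365 tested genes was 0.641, 0.718, 0.735 and 0.659 with those 4 lists, so a high rho with them is common. Tnfrsf17, a defining gene of plasma cells, stayed under 1 TPM in every library, the only gene of the 6 on that list to do so. The other 5 were tested and had reads in every library. Jchain had 3 to 125 reads per library, Mzb1 4 to 43, Sdc1 19 to 161, Prdm1 94 to 690 and Xbp1 336 to 1763. The other replication genes varied: Tk1 ranked with B cell markers at 0.9 and with monocyte markers at 0.903, while Rrm2 ranked with B cell markers at 0.453 and with T cell markers at 0.274. Pcna ranked with B cell markers at 0.344. For the erythroid list the share of genes at a rho of at least 0.7 was 13% of the 23 members (Ube2c, Nusap1 and Mki67) and 1.03% of all tested genes. Pcna had the lowest rho with that list, -0.706, and 0.706 with the T cell list. No member reached 0.7 with the immature or mature neutrophil lists. With the platelet list 1 member did, Bub1b at 0.709, which is 4.35% of the 23 beside 8.21% of all tested genes. The haematopoietic progenitor list rested on 2 tested genes, Flt3 and Gata2. The 10 genes most like the sum of all 37, by rho from 0.959 to 0.979, were Zfp954, Gorab, Rsl1d1, Polr2d, Mpc2, Traf6, Prps1, Noc4l, Nipa2 and Timm8a1.

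**Figure D4:**
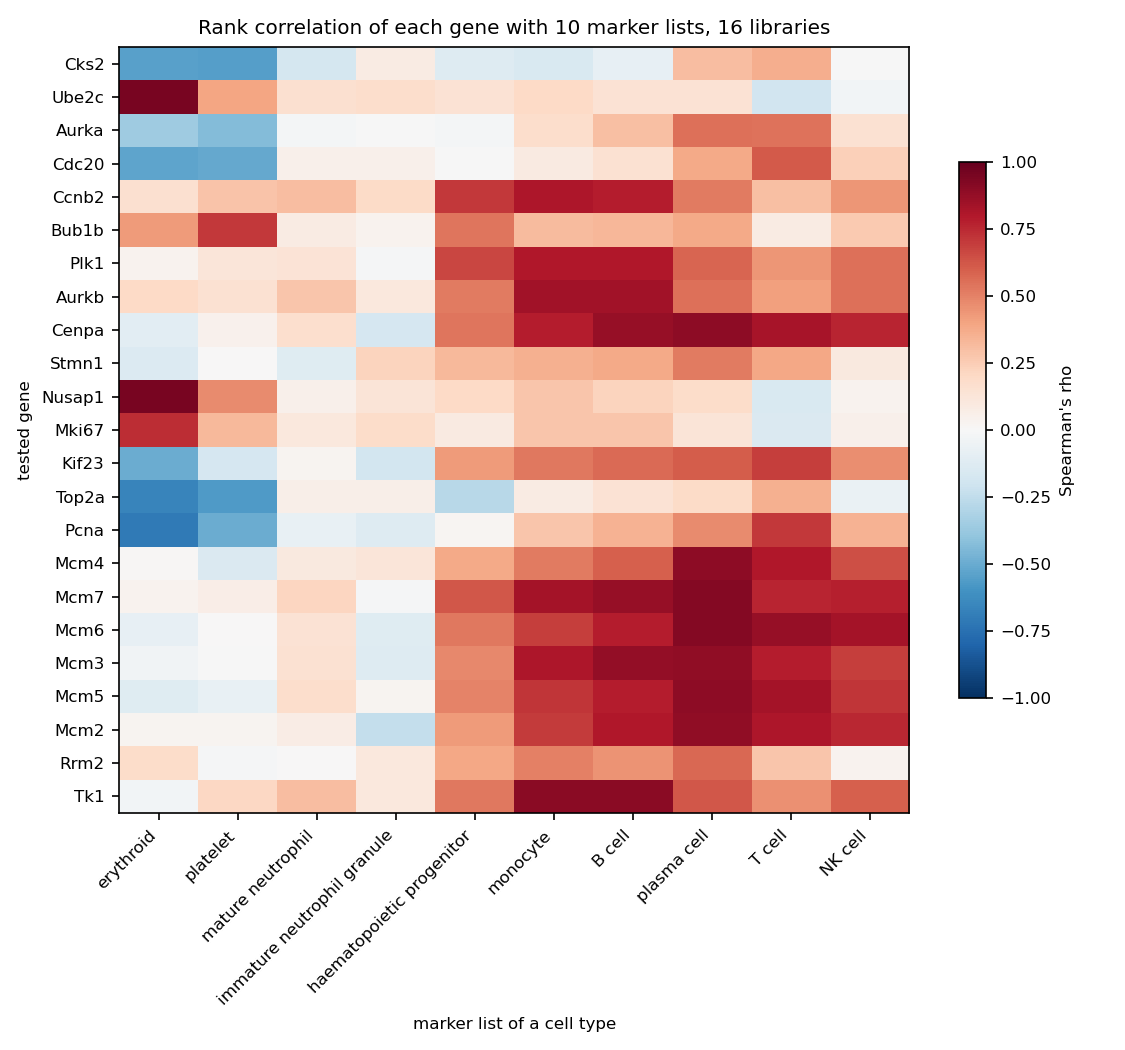
Spearman's rho (colour) of each of the 23 tested genes (rows) with the mean level of 10 cell type marker lists (columns) over 16 libraries. Ube2c and Nusap1 are darkest with the erythroid list, which includes Alas2, at 0.953 for Ube2c. The 6 Mcm genes are dark with the lymphocyte lists, up to 0.918 with the plasma cell list, where the median over all tested genes was 0.735.

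No gene of the 23 passed the test between groups. In HFD+L-NAME against chow, limma called 0 of 23 at an adjusted p under 0.05, and 0 of 23 had an unadjusted p under 0.05; among all 16365 genes 0.00611% were called. The fitted log2 differences ran from -0.69 to 0.76, with 7 of 23 above 0, a median of -0.15 for the 23 and of -0.29 for all tested genes. Mcm2 had the smallest p, with a log2 difference of -0.69 ± 0.38 (SE, adjusted p = 0.816). Its mean was 6.95 ± 4.10 TPM in chow (SD, n = 5) and 3.97 ± 2.60 TPM in HFD+L-NAME (SD, n = 5), and the groups overlapped. Without chow library 1 the Mcm2 difference was -0.44. In the 11 libraries of the lower number run alone, the Mcm2 difference was 0.0027 and the median of the members 0.22. Leaving out the 4 libraries with peritoneal macrophage genes also gave 0.0027 for Mcm2. In chow and HFD+L-NAME these 4 are the libraries of the higher run, so run and macrophage RNA cannot be told apart here. The median-of-ratios scaling moved the median of all genes from -0.29 to 0.02 and that of the members to 0.12. The 9 tested replication genes had a median of -0.43, with 1 above 0, beside that general shift. T cell markers had a median of -1.04 and NK cell markers of -1.10 in the same comparison, with 0 of 6 and 0 of 4 called. All 6 and all 4 had an unadjusted p under 0.05 in limma, as did 479 of all 16365 genes. The part of T and NK cell markers in the values of the replication genes was not tested.

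With NO2-OA added, that is HFD+L-NAME+NO2-OA set against HFD+L-NAME, 0 of 23 genes were called and 0 had an unadjusted p under 0.05, while 0.00611% of all genes were called. Differences ran from -0.35 to 0.87, with 12 of 23 above 0 and a median of 0.02, beside 0.08 for all tested genes. Mcm4 had the smallest p, with a log2 difference of 0.58 ± 0.40 (SE, adjusted p = 1). The Mcm4 means were 13.7 ± 10.3 TPM (SD, n = 5) and 17.5 ± 3.64 TPM (SD, n = 6). Ube2c had the largest difference, 0.87 ± 0.64 (SE, adjusted p = 1). Single libraries moved both values: without HFD+L-NAME library 5 the difference was 0.33 for Mcm4 and 0.46 for Ube2c, and without HFD+L-NAME library 4 it was 0.91 for Mcm4. Without HFD+L-NAME+NO2-OA library 1 the Ube2c difference was 0.52.

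Between HFD+L-NAME+NO2-OA and chow, 0 of 23 genes were called by limma, beside 0% of all genes, and 2 had an unadjusted p under 0.05. These were Ube2c, with a log2 difference of 1.63 ± 0.64 (SE, adjusted p = 0.977), and Nusap1, with 1.18 ± 0.52 (SE, adjusted p = 0.977). Ube2c means were 3.87 ± 3.90 TPM in chow (SD, n = 5), 6.64 ± 4.88 TPM in HFD+L-NAME (SD, n = 5) and 15.9 ± 13.6 TPM in HFD+L-NAME+NO2-OA (SD, n = 6), and all 3 groups overlapped. Alas2 had a log2 difference of 2.11 ± 0.96 (SE, adjusted p = 0.977) in the same comparison, with 184 ± 179.8 TPM in chow (SD, n = 5), 255 ± 206 TPM in HFD+L-NAME (SD, n = 5) and 663 ± 605 TPM in HFD+L-NAME+NO2-OA (SD, n = 6). In a fit with Alas2 as a covariate, an alternative added after the data were seen, again 0 of 23 genes were called. The difference in that fit was 0.31 ± 0.36 (SE) for Ube2c and 0.17 ± 0.34 for Nusap1. Both genes rose with Alas2, so smaller differences there follow from their slopes and from the difference in Alas2. They are no separate result, and the part of red cell RNA in the group differences was not tested. The 23 differences ran from -0.64 for Pcna to 1.63 for Ube2c, with 6 above 0 and a median of -0.16, beside -0.20 for all tested genes. The chow group enters 2 of the 3 comparisons and the HFD+L-NAME group enters 2, so their values are not independent. Of the 37 genes, 23 of them tested, 0 had groups that did not overlap in any of the 3 comparisons. Among all 16365 tested genes the groups did not overlap for 0.11% in HFD+L-NAME against chow, 0.0367% between HFD+L-NAME+NO2-OA and HFD+L-NAME, and 0.275% between HFD+L-NAME+NO2-OA and chow, so a count of 0 among the members is close to the background.

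**Figure D5:**
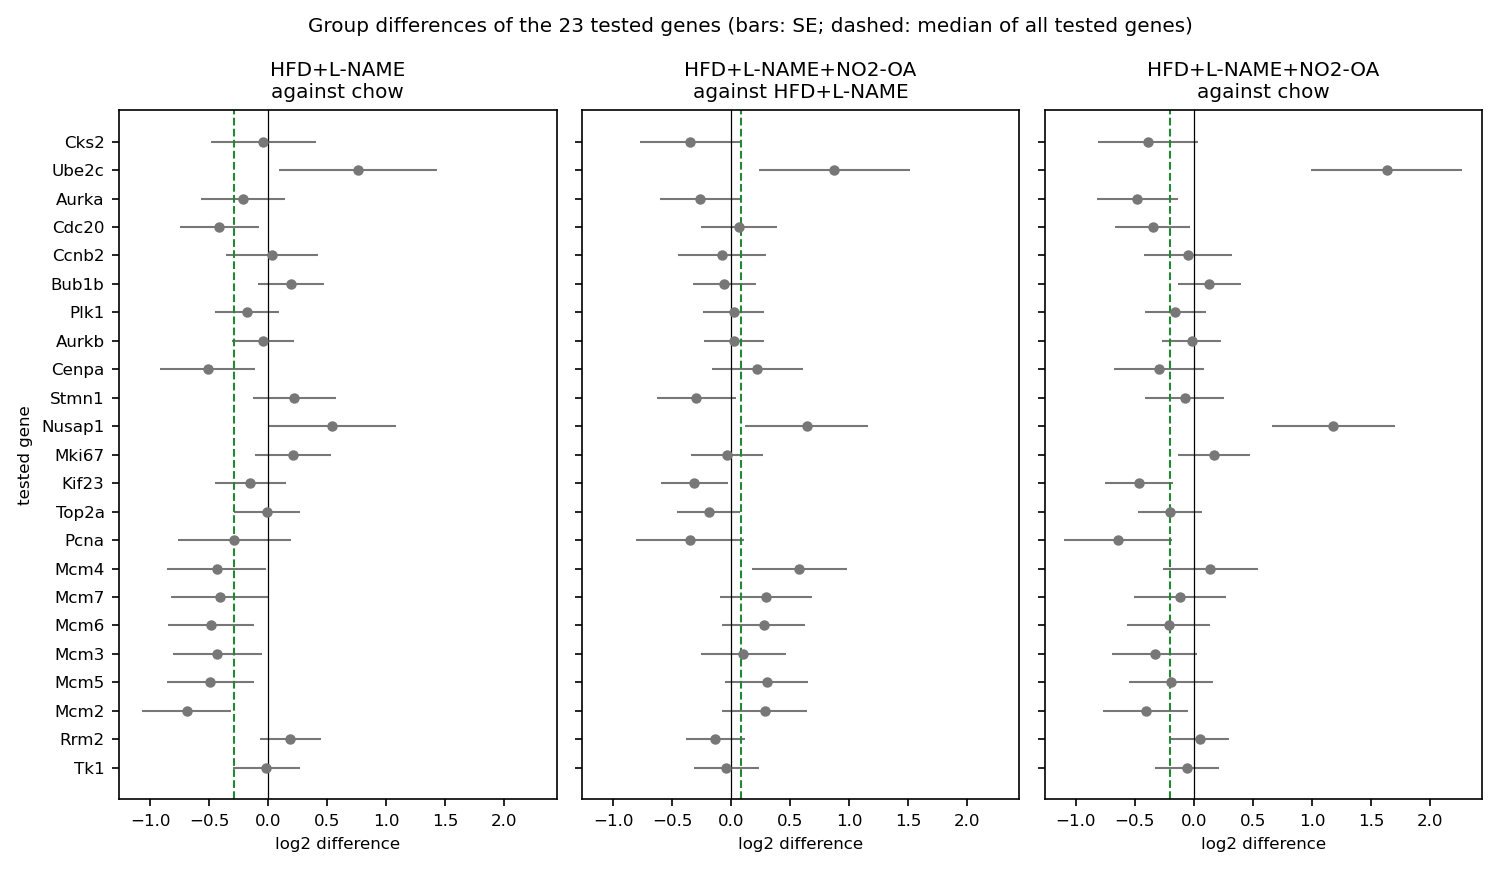
Log2 difference of each of the 23 tested genes (rows) in the 3 comparisons (panels), with bars for the standard error and a dashed line for the median of all tested genes. Most points lie near the dashed line, and Ube2c at 1.63 and Nusap1 at 1.18 lie farthest from it between HFD+L-NAME+NO2-OA and chow.

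Other genes of the cell cycle, from 5 lists, gave 0 calls in the 3 group comparisons. The 8 cyclins and kinases of the G1 phase were all tested; Ccnd1, cyclin D1, had a log2 difference of -0.92 ± 0.40 (SE, adjusted p = 1) between HFD+L-NAME+NO2-OA and HFD+L-NAME. Ccnd3 and Ccnd2, D-type cyclins, were the most abundant of them, at 14.5 to 106 TPM and 7.85 to 26.7 TPM. Of 12 cell cycle inhibitors 9 were tested, of 12 transcription factors 10, of 21 other replication genes 18 and of 41 other mitotic genes 20. The most abundant inhibitors were the antiproliferative genes Btg1, at 149.7 to 712 TPM, and Btg2, at 71.9 to 260.2 TPM. Among other replication genes these were Cdt1, which loads the MCM helicase, at 8.52 to 74.7 TPM and Dut, a dUTPase, at 2.54 to 61.3 TPM. Among other mitotic genes they were Smc4, a condensin subunit, at 12.1 to 76.5 TPM and Hmgb2, a chromatin protein, at 11.9 to 60.6 TPM. Their medians in HFD+L-NAME against chow ran from -0.33 to -0.17 over the 5 lists, beside -0.29 for all tested genes. On Alas2, 1 gene rose and none fell among the 8, 9, 10, 18 and 20 genes tested in the 5 lists. This share is close to the 1.23% called among all genes, so the count is no result about these lists. The gene that rose was E2f2, a transcription factor of the E2F family, with a slope of 0.45 ± 0.08 (SE, adjusted p = 0.00138). E2f2 stood at 11.5, 22.4, 4.01, 23.9 and 18.5 TPM in chow libraries 1 to 5, at 25.6, 21.6, 27.2, 12.9 and 4.18 TPM in HFD+L-NAME libraries 1 to 5, and from 7.46 to 70.2 TPM (median 31.9) in the 6 HFD+L-NAME+NO2-OA libraries. Its highest values fell in HFD+L-NAME+NO2-OA libraries 1 and 6, which were also the 2 highest in Alas2, and the groups overlapped. On Ngp, 0 genes of the 5 lists were called, beside 0.0122% of all genes.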

How the data were processed

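RNA was sequenced from 16 mouse PBMC libraries with random-primed total RNA kits, per the labels' protocols. The authors' tools were featureCounts, HISAT2, Trim Galore and bcl2fastq, with the builds mm39 and hg38 named, per the submitters' processing notes; versions, annotation release and strand setting are not given in the sources used here. The deposited values are TPM, made by the authors, and without a stated strand setting, reads of overlapping antisense genes cannot be told apart. Where only identifiers were listed, names came from GENCODE M21, which matched 48486 of 51179. Whole reads were recovered from the TPM steps within a tolerance of 0.001, 100% of values above 0 coming out whole. A gene seen in few libraries can be off by a divisor. Intervals and floors from these reads would cover counting error only, and none is printed.

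Genes with at least 1 TPM in at least 5 libraries (16365) were tested on log2(TPM + 1) in limma 3.58.1 (R 4.3.3), with all 16 libraries in 1 fit, a variance trend, two-sided tests and Benjamini-Hochberg adjustment over all tested genes at 0.05. A log2 difference on this scale understates the change of low genes. Slopes used log2(TPM + 1) of Alas2 or Ngp beside the groups, and the marker itself was left out of the test. Correlations are descriptions. A marker list's level was the mean over its tested genes of log2(TPM + 1), centred and scaled per gene. The fits were tested on simulated data. Voom on recovered reads was one of the alternatives. Samples were grouped by their titles. The members, lists and marker genes were chosen with earlier results of these data known.

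Values by library (in the HFD+L-NAME+NO2-OA group, the lowest, median and highest) are given for the 2 members of highest mean in each role, Mki67, Top2a, Pcna, called members, and the member of smallest p per comparison. For slopes, the 5 largest and 3 smallest are named. From the other lists, called genes are named and, where none was called, the 2 of highest mean; Ccnd1, the genes like Ube2c and Nusap1, and the promoters shown were chosen after their values were seen. Python 3.11.15, numpy 2.4.6, pandas 2.3.3, scipy and matplotlib 3.10.9 were used, with version 1.17.8 of data.table in R.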

Additional observations from a re-analysis of the deposited data

Results flagged for a closer look

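Among 75 groups of libraries examined (23 tested members, Alas2 and Ngp in 3 groups), 1 library lay far from the rest of its group by Dixon's test; chance flags about 1 in 20 groups. Ccnb2 was at 0.0866 TPM in HFD+L-NAME+NO2-OA library 2, which rests on 1 read, against 1.72 to 3.06 TPM in the other 5 libraries of that group. This library also had 15.9% of its TPM in protein-coding genes.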

How the results depend on the processing

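No member was called in any group comparison or on Ngp under any alternative, and Ube2c and Nusap1 were called on Alas2 under all of them. The rescaling to protein-coding genes raised the members called on Alas2 from 2 to 12, and to 9 with both markers in 1 fit. In that setting the median slope of all genes also moved downward. Voom called Pcna as well, at -0.35. Leaving out HFD+L-NAME+NO2-OA library 4 raised the genes called on Alas2 among all tested from 108 to 844 upward and from 94 to 263 downward, with the same 2 members. The rank correlation of the sum with Alas2 was -0.691 on the protein-coding scale; that with Ngp was 0.159 on that scale, 0.132 under median-of-ratios scaling and 0.182 in the lower number run. For these, the cause was not tested.

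The replicate numbers are shared between groups. Of 15 pairs with the same number, 3 correlated above 0.1 (range -0.51 to 0.51), so no pairing was used. With a replicate block the count of members called stayed at 2 on Alas2 and 0 elsewhere, the slopes on Alas2 were 0.61 for Ube2c and 0.46 for Nusap1, and the slope of Aurkb on Ngp turned to 0.0176.

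Signs that turned belong to values that had not passed a test. On Alas2, Ccnb2 gave -0.0133 without the 3 libraries of low protein-coding share, and Mcm7 gave -0.11 on the protein-coding scale, -0.0131 in voom and -0.079 without those 3. On Ngp, Cks2 gave -0.0022 in the lower run, -0.0016 without group terms and -0.0472 without the 2 farthest libraries; Cdc20 gave -0.0517 and Ube2c 0.11 without group terms. On the protein-coding scale Aurkb gave 0.0235, Mcm6 0.13, Cenpa 0.0633 and Mcm2 0.0314. Without the 3 libraries Aurkb gave 0.0529, Mcm6 0.04 and Ube2c 0.0674. Mcm6 gave 0.0487 under median-of-ratios scaling, 0.0593 in voom and 0.0406 without the 2 farthest. In the lower run and without the 4 peritoneal libraries, Mcm6 gave 0.23 and 0.11, Cenpa 0.20 and 0.0338, and Mcm2 0.15 and 0.0266. In HFD+L-NAME against chow, both settings gave 0.0027 for Mcm2 and 0.29 for Pcna, and median-of-ratios scaling gave 0.10 for Pcna. Leaving out 1 library at a time, slopes on Ngp ranged from -0.0356 to 0.019 for Aurkb, -0.0305 to 0.0774 for Cdc20, -0.14 to 0.12 for Cks2, -0.0911 to 0.0237 for Mcm6, -0.0168 to 0.0731 for Stmn1 and -0.23 to 0.0565 for Ube2c. Pcna differences ranged from -0.72 to 0.0649 in HFD+L-NAME against chow and -0.63 to 0.0844 between HFD+L-NAME+NO2-OA and HFD+L-NAME. The level filter, 1 TPM in 5 libraries, and not read number alone, left out 14 members; some of them had more reads than tested members.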
